A study of Mus musculus with 12 samples.

Results

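The comparison described here sets astrocytes of Cd38+/- mice, which carry 1 working copy of Cd38, against astrocytes of wild-type Cd38+/+ mice. It rests on 6 of the 12 samples of the series, 3 per genotype, chosen by their genotype labels. All samples came from male mice on a C57BL/6J background aged 12 to 14 months, and the mutant allele (Cd38tm1Lnd) is a global disruption of exons 2 to 3, so that every cell type of a Cd38+/- mouse carries it and not astrocytes alone. Tissue the study calls midbrain (striatum, thalamus and substantia nigra) was dissociated with papain, myelin, endothelial cells and microglia were depleted with magnetic beads, and astrocytes were then held on beads against ACSA-2, an epitope of the astrocyte sodium pump subunit encoded by Atp1b2. The labels do not say whether each sample was 1 mouse, so p-values measure the spread between these samples. Expression was deposited as TPM, a length-normalized transcript abundance in which the reads of a gene are divided by its transcript length and each sample is scaled to the same total. Of 20614 genes in the table, 11763 reached a mean above 5 TPM in Cd38+/+ or in Cd38+/- and were tested, and 7207 of these had a mean Cd38+/+ TPM above 20 and are called well expressed below.

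CD38 is an ectoenzyme that cleaves NAD+ to nicotinamide and ADP-ribose products, among them cyclic ADP-ribose, a messenger that releases calcium from the endoplasmic reticulum. Astrocytes take up glutamate and GABA after synaptic release, buffer extracellular potassium and water, supply neurons with lactate and cholesterol and store the glycogen of the brain. Their level of NAD bears on these tasks through the dehydrogenases of energy metabolism and through NAD-consuming enzymes such as the sirtuins and PARPs.

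The libraries of the 2 genotypes stood apart before any gene was compared. The Cd38+/+ samples listed 13160 to 13516 genes above 0 and the Cd38+/- samples 16160 to 16327, with no overlap (two-sided exact permutation test, p = 0.1, the smallest that 3 against 3 allows). Among well-expressed genes the median SD of log2(TPM + 1) was 0.38 in Cd38+/+ and 0.17 in Cd38+/-. TPM carries no read count, so the depth of the samples is unknown. The astrocyte label matched its markers: the 15 astrocyte markers summed to 27022, 24169 and 19458 TPM in Cd38+/+ and 26429, 29771 and 29910.1 in Cd38+/-, none was at 0 in every sample of a genotype, all were well expressed, and 14 had the higher mean of log2(TPM + 1) in Cd38+/-. Other cells were present too. The 5 erythroid markers (hemoglobins and Alas2) summed to 17777, 34711 and 7770.3 TPM in Cd38+/+ and 3228, 6453 and 4287 in Cd38+/-, lower in Cd38+/- without overlap. The 6 choroid plexus markers summed to 307, 45.6 and 105 TPM in Cd38+/+ and 7188, 467 and 191 in Cd38+/-, where replicate 1 held most of the signal. All 6 had the higher mean in Cd38+/- and 1 was at 0 in every Cd38+/+ sample. The 10 endothelial markers summed to 2180.1, 1188 and 501 TPM in Cd38+/+ and 853, 424 and 618 in Cd38+/-, and 8 of them had the lower mean in Cd38+/-. The 12 microglia markers were higher in Cd38+/- in mean for all 12, with sums of 130.1, 138 and 111 against 146, 183 and 157 TPM, far below those of astrocytes, and 2 of them were at 0 in every Cd38+/+ sample. Oligodendrocyte markers summed to 7192, 4954 and 1309.7 TPM in Cd38+/+ and 3098, 11049 and 3832 in Cd38+/- and overlapped, as did ependymal, mural and oligodendrocyte precursor sums, and the 14 neuron markers summed to at most 188 TPM in any sample. The part of these cells in the results below was not tested, and in bulk samples fewer cells of a type and less RNA per cell cannot be told apart.

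**Figure D1:**
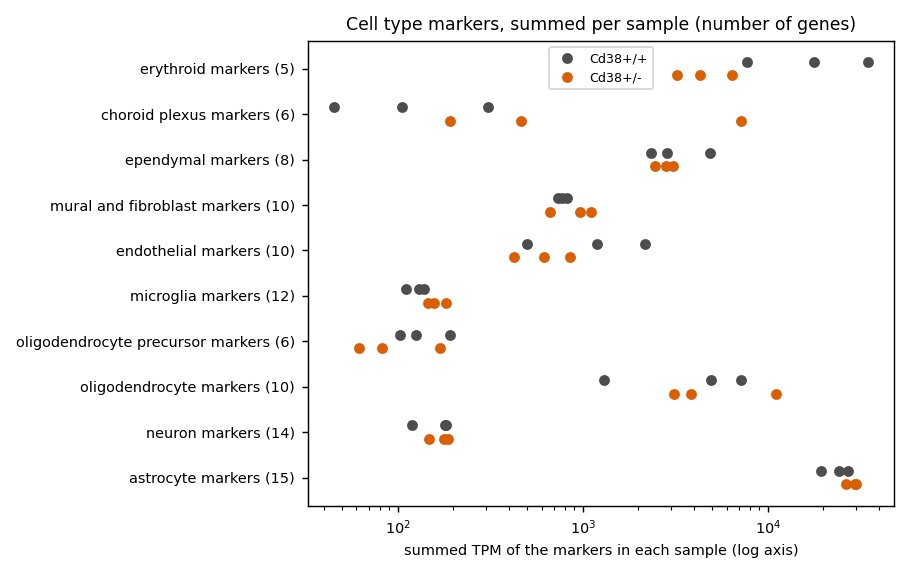
Summed TPM of each marker list in each sample (log axis), with grey points for the 3 Cd38+/+ and orange points for the 3 Cd38+/- samples. Erythroid sums did not overlap between genotypes, and 1 Cd38+/- sample held a choroid plexus sum of 7188 TPM.

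With limma on log2(TPM + 1), no gene of the 11763 reached a Storey q-value under 0.05 with a 1.2-fold change (0% called), and the lowest q was 0.158. The count of calls was 0 to 30 under the other pseudocounts, scalings, fits, weights and adjustments tried and 0 or 1 with any 1 sample left out, but 662 with no filter on low values and 1464 when all 12 samples of the series shared 1 estimate of the spread. At an unadjusted p under 0.05 limma gave 1586 genes, and 1117 of them were higher in Cd38+/- (9.5% of genes tested) and 469 lower (3.99%). The genotypes did not overlap for 1826 genes higher in Cd38+/- (15.5%) and 816 lower (6.94%). Among the 7207 well-expressed genes, 607 were higher (8.42%) and 436 lower (6.05%) at that unadjusted p, and 899 (12.5%) and 686 (9.52%) did not overlap in the respective direction. These percentages are the background for every list below. The median log2 fold change was 0.06 over well-expressed genes and 0.18 over all genes tested, and 86 well-expressed genes had a log2 fold change above 1 and 84 below -1. Choosing well-expressed genes by the Cd38+/+ mean favours genes that are lower in Cd38+/-; with the mean over all 6 samples, 7482 genes qualified, 756 of them higher and 411 lower. The split also moved with the scaling. It was 293 higher and 747 lower after median-ratio scaling, which shifted the median of well-expressed genes by -0.13, 581 and 551 after quantile normalization, and 638 and 271 once each sample was corrected for a dependence on transcript length and GC content. Single samples weighed on the counts as well: 264 genes were higher and 291 lower without Cd38+/- replicate 1, the library rich in choroid plexus transcripts, and 236 and 208 without Cd38+/- replicate 3. No gene below passed the adjusted test on these 6 samples, so differences are given as values, and list medians are given with the one after median-ratio scaling. Where a call is named, it is at the unadjusted p.

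**Figure D2:**
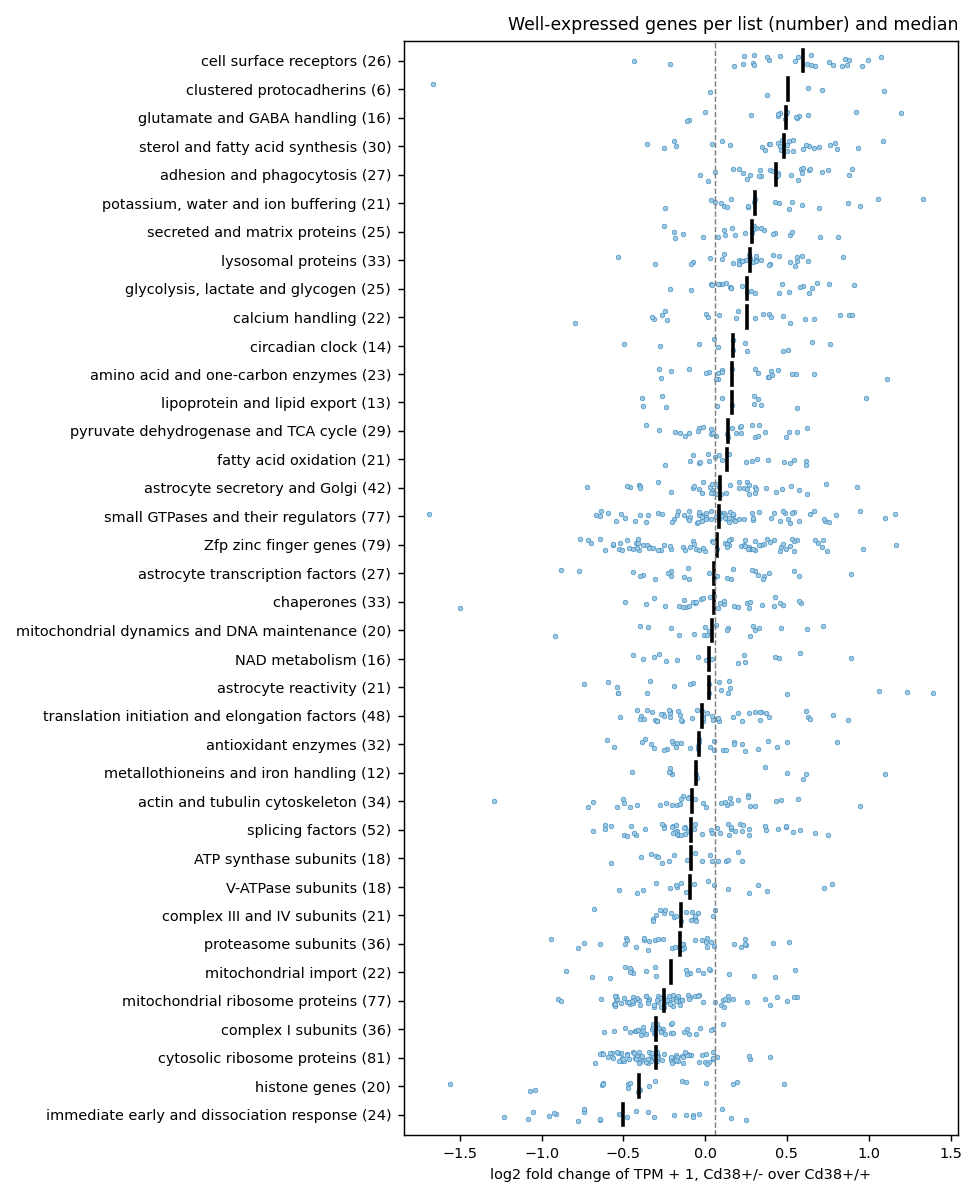
Log2 fold change of TPM + 1 (horizontal axis) for the well-expressed members of each gene list with at least 6 of them; each point is a gene, the black bar is the list median and the dashed line is the median of all well-expressed genes, 0.06. Receptors, glutamate and GABA handling and sterol synthesis lie to the right, and ribosome, complex I and immediate early genes to the left.

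Cd38 itself was at 149, 120.0 and 105 TPM in the Cd38+/+ samples and 90.8, 90.7 and 90.4 in the Cd38+/- samples, lower in every Cd38+/- sample. The log2 fold change was -0.44 (SE 0.18, limma unadjusted p = 0.0407, q = 0.226), and the TPM does not tell transcripts of the disrupted copy from those of the working one. The SD of the TPM was 22.2 in Cd38+/+ and 0.23 in Cd38+/-, and a two-sided exact permutation test gave p = 0.1, the smallest possible. Around it, the genes of NAD metabolism showed no common direction: of 16 that were well expressed, 9 had a positive and 7 a negative log2 fold change, with 2 higher and 1, Cd38, lower at the unadjusted p and a median of 0.02 (-0.11 after median-ratio scaling). Nadk2, the mitochondrial NAD kinase that makes NADP, was at 101, 99.1 and 92.3 TPM in Cd38+/+ and 145, 139 and 154 in Cd38+/-, higher without overlap (0.58, SE 0.16, unadjusted p = 0.00504). The cytosolic NAD kinase gene Nadk was at 71.04, 76.1 and 107 against 119, 107 and 112 TPM, with overlap. Naprt, which starts NAD synthesis from nicotinic acid, lay below wild type without overlap, at 104, 121 and 103 against 66.9, 89.8 and 96.1 TPM (-0.38, SE 0.20, unadjusted p = 0.0882), as did the mitochondrial desuccinylase gene Sirt5, at 64.00, 57.5 and 70.8 against 50.3, 53.1 and 50.1 TPM (-0.32, unadjusted p = 0.142). Parp1, a DNA-damage sensor that consumes NAD+, lay above wild type without overlap, at 23.9, 21.6 and 21.99 against 42.5, 24.2 and 29.2 TPM, but its p was 0.163. Sirt2, the most abundant sirtuin gene here, overlapped between genotypes at 197, 186 and 249 against 196, 205 and 208 TPM. Nampt, the rate-limiting enzyme of salvage from nicotinamide, was below the well-expressed bound at 9.87, 13.8 and 14.1 and 17.3, 11.3 and 14.7 TPM. Art3, a member of the ADP-ribosyltransferase family, had the largest log2 fold change among the well-expressed members, 0.89 (SE 0.38, unadjusted p = 0.0435), with overlap between genotypes.

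Genes for the uptake of transmitters were higher in Cd38+/-. Of 16 well-expressed genes of glutamate and GABA handling, 10 were higher and none lower at the unadjusted p, 10 lay above Cd38+/+ without overlap, and the median log2 fold change was 0.49 (0.36 after median-ratio scaling, 0.49 without the length and GC trend). With any 1 sample left out the count was 7 to 10. Slc1a3, which encodes the glutamate transporter GLAST, was at 2688, 2379 and 1964 TPM in Cd38+/+ and 3399, 3022 and 3431 in Cd38+/- (0.50, SE 0.15, unadjusted p = 0.0105). Slc1a2, for the glutamate transporter GLT-1, was at 200.0, 230.0 and 225 against 323, 316 and 325 TPM (0.56, SE 0.14, unadjusted p = 0.00277). Every Cd38+/- sample was above every Cd38+/+ sample for both carriers. Slc6a11, a GABA transporter gene, ranged widely in Cd38+/+, at 548, 1522 and 841 TPM, and overlapped with 1483, 1592 and 2028 in Cd38+/-. Abat, the GABA transaminase, was at 257, 252 and 216 against 359, 319 and 405 TPM (0.57, SE 0.15), and Glud1, glutamate dehydrogenase, at 176, 212 and 201 against 265, 254 and 289 (0.46, SE 0.15), both without overlap. The largest log2 fold change of the list was that of Grm3, the main metabotropic glutamate receptor of adult astrocytes, at 78.6, 108 and 62.2 TPM in Cd38+/+ and 190.2, 181 and 189 in Cd38+/- (1.19, SE 0.22, unadjusted p = 0.000382, q = 0.158). Slc38a3, a glutamine exporter, and Slc6a9, a glycine transporter, were also higher without overlap (0.55 and 0.49). Glul, the glutamine synthetase that converts the glutamate taken up, did not share this direction, at 1627, 1042 and 855 against 939.8, 1200.1 and 1051 TPM (-0.10, SE 0.23), nor did the aminotransferase genes Got1 and Got2 (-0.11 and -0.0028).

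Ion and water handling showed a smaller set of higher genes. Of 21 members 7 were higher and none lower at the unadjusted p, 10 were higher without overlap and 1 lower, and the median was 0.31 (0.17 after median-ratio scaling). Without 1 or another sample the count was 6 to 10. Aqp4, the water channel of the endfeet, was at 471, 558 and 369 TPM in Cd38+/+ and 955, 946 and 967 in Cd38+/- (1.05, SE 0.17, unadjusted p = 0.000143, q = 0.158). Each Cd38+/- sample lay above each Cd38+/+ sample. Slc4a4, a sodium bicarbonate cotransporter, was at 385, 523 and 326 against 828, 622 and 787 TPM (0.87, SE 0.20), and Clcn2, a chloride channel, at 17.04, 22.3 and 37.4 against 63.4, 63.6 and 60.4 (1.33, SE 0.30). Gja1, which encodes connexin 43, was at 2519, 2453 and 1820.1 against 2896, 3396 and 3336 TPM (0.51, SE 0.16, unadjusted p = 0.012), without overlap. Its partner Gjb6, connexin 30, overlapped at 1642, 1328 and 1032 against 1284, 1539 and 1454 TPM (0.12, SE 0.18). The inward rectifier gene Kcnj10 (Kir4.1) also lay above wild type in every sample, but by little, at 48.8, 40.6 and 48.7 against 51.97, 48.9 and 50.6 TPM (0.14, SE 0.21, unadjusted p = 0.53), and Kcnj16, its partner subunit, overlapped at 148, 148 and 117 against 146, 125 and 159 TPM. Atp1b2, which carries the epitope used for the sort, was at 2083, 1618 and 1188 TPM in Cd38+/+ and 2059.7, 2398 and 2063 in Cd38+/-, with overlap (0.45, SE 0.20, unadjusted p = 0.0539). Fxyd1, a regulator of the sodium pump with a short transcript, was the single member lower without overlap, at 1074, 1158 and 1244 against 902, 1058 and 974 TPM, and its log2 fold change of -0.24 was 0.01 without the length and GC trend.

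**Figure D3:**
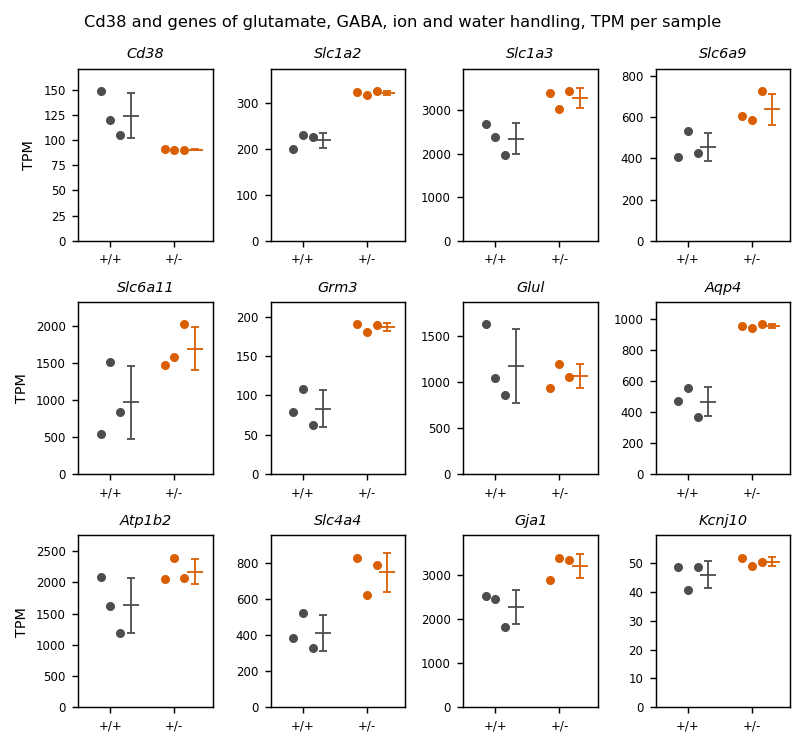
TPM of Cd38 and 11 genes of transmitter, ion and water handling; points are the 3 samples of each genotype (grey Cd38+/+, orange Cd38+/-) and the bar beside them is the mean with its SD, each axis starting at 0. Cd38 is lower in Cd38+/-, Slc1a2, Slc1a3, Slc6a9, Grm3, Aqp4, Slc4a4 and Gja1 are higher without overlap, and Glul lies within the spread.

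Of the function lists with at least 6 well-expressed members, cell surface receptors had the highest median, 0.60 over 26 well-expressed genes (0.46 after median-ratio scaling and 0.49 without the length and GC trend), with 16 higher, none lower and 15 higher without overlap. The count with 1 sample left out was 9 to 15, with 9 without Cd38+/- replicate 3. Growth factor receptors were among them. Fgfr3 was at 493, 706 and 486 TPM in Cd38+/+ and 1012, 936 and 1091 in Cd38+/- (0.87, SE 0.17, unadjusted p = 0.000731), and Egfr at 16.7, 38.03 and 23.6 against 57.05, 44.03 and 59.8 (1.07, SE 0.33). The related genes Fgfr1 and Fgfr2, the BMP receptors Bmpr1a and Bmpr1b and Notch1 were each higher without overlap, with log2 fold changes of 0.67, 0.57, 0.85, 0.83 and 0.76. Receptors for transmitters and peptides lay in the same direction: Gabbr1, a GABA-B receptor subunit, was at 68.3, 66.2 and 68.8 against 117, 119.8 and 141 TPM (0.88, SE 0.17, unadjusted p = 0.000651). Gabrg1, a GABA-A subunit typical of astrocytes, was at 87.3, 93.05 and 57.6 against 141, 156 and 171 TPM (0.99, SE 0.22), and Adcyap1r1, the receptor of the peptide PACAP, at 156, 187 and 158 against 289, 258 and 315 (0.78, SE 0.16). Il6st, the signal-transducing chain gp130 of the interleukin-6 family, was at 65.9, 51.9 and 58.8 against 143, 90.03 and 118 TPM (0.96, SE 0.22). The most abundant receptor gene, Gpr37l1, was at 2376, 3216 and 2465 against 3113, 3924 and 3996 TPM and overlapped. Lifr and Tgfbr2 had negative values (-0.43 and -0.22) within their spread.

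Genes of adhesion and phagocytosis showed 9 of 27 higher, none lower and 14 higher without overlap, with a median of 0.44 (0.31 after median-ratio scaling). Over the 6 leave-one-out fits the count was 5 to 12, with 5 without Cd38+/- replicate 1. Mertk, a phagocytic receptor for synapses and debris, was at 41.6, 34.9 and 43.5 against 101, 57.7 and 69.2 TPM (0.88, SE 0.26, unadjusted p = 0.00766). Its ligand Gas6 overlapped, at 180.4, 231 and 233 against 441, 199 and 283 TPM. Both were highest in Cd38+/- replicate 1, the library with the choroid plexus sum of 7188 TPM, whose part in these values was not tested. The integrin genes Itgav, Itgb8 and Itgb5 were each higher without overlap (0.71, 0.90 and 0.45). Among adhesion molecules, Nrcam was at 198, 229 and 147 against 312, 302 and 341 TPM (0.75, SE 0.18) and Gpm6a, a membrane glycoprotein, at 551, 569 and 564 against 885, 842 and 885 (0.63, SE 0.12, unadjusted p = 0.000519). N-cadherin (Cdh2) was also above the wild-type samples without overlap (0.60). Of the 25 secreted and matrix genes 3 were higher and none lower (median 0.29, and 0.16 after median-ratio scaling): Ptprz1, a receptor-type phosphatase with a proteoglycan form, at 237, 241 and 199 against 452, 347 and 397 TPM (0.81, SE 0.16), the proteoglycan Bcan at 1422, 1466 and 1400.5 against 1893, 1888 and 1993 (0.43, SE 0.12), and the glypican Gpc5 (0.52). Leaving out 1 sample gave a count of 3 to 5, with 5 without Cd38+/- replicate 1. Abundant secreted products, Sparcl1, Cst3, Sparc and Serpine2, overlapped between genotypes (0.29, -0.19, -0.13 and 0.08).

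Sterol and fatty acid synthesis was higher as a list. Of 30 well-expressed members 13 were higher and none lower at the unadjusted p, 14 were higher without overlap, and the median was 0.48 (0.35 after median-ratio scaling, 0.52 without the length and GC trend). With any 1 sample left out the count was 8 to 15, with 8 without Cd38+/- replicate 3. At the head of the mevalonate pathway, the synthase gene Hmgcs1 was at 104, 169.8 and 87.96 TPM in Cd38+/+ and 187, 211 and 212 in Cd38+/- (0.81, SE 0.24, unadjusted p = 0.00867). The next enzymes did not all share this direction. Mvk, Mvd and Fdps, which carry mevalonate to farnesyl diphosphate, had log2 fold changes of -0.25, -0.18 and -0.35, each within its spread, while Idi1, the isomerase between them, was at 80.7, 52.96 and 65.8 against 84.9, 113 and 91.4 TPM without overlap (0.54, SE 0.22). In the sterol branch Sqle, squalene epoxidase, was at 220.3, 113 and 164 against 226, 226 and 228 TPM (0.50, SE 0.23) and Cyp51, lanosterol demethylase, at 81.7, 44.9 and 43.1 against 84.8, 108 and 86.4 (0.76, SE 0.27), both without overlap, whereas Fdft1, Lss and Ebp overlapped (0.10, -0.19 and 0.04). Insig1, which holds the sterol sensor in the endoplasmic reticulum, was higher without overlap as well, at 98.5, 144 and 121 against 166, 235 and 188 TPM (0.69, SE 0.20). Desaturases stood out by abundance: Scd2 was at 1009.6, 1032 and 1083 TPM in Cd38+/+ and 1884, 1625 and 1913 in Cd38+/- (0.79, SE 0.13, unadjusted p = 0.000178, q = 0.158), Fads1 at 353, 278 and 319 against 538, 445 and 523 (0.66, SE 0.15), and Fads2 was higher by 0.45. The transcription factor genes Srebf1 and Srebf2 overlapped between genotypes (0.36 and 0.40). In lipid export, Abca1, the cholesterol efflux pump, was the 1 gene of 13 called (24.2, 41.5 and 31.7 against 78.02, 49.7 and 66.7 TPM, 0.98, SE 0.28), and Apoe was at 48498, 44913 and 50487 against 33049.5, 45345 and 42427 TPM (-0.26, SE 0.19).

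The sterol-response motif TCACNCCAC was searched on both strands in the 250 bases before the start site in the RefSeq promoter table (GRCm38.p6). It was held by 1 of the 22 well-expressed sterol and fatty acid genes with an entry there, by 1.32% of the well-expressed genes and by 1.22% of all genes in that table. The match, in Hmgcs1, lies at chr13:119690204-119690233 on the plus strand, 137 bases before the start site, and is shown because this gene opens the pathway, with the motif in capitals.
Hmgcs1: cgtcaccgtcTCACCCCACttcccaggtcc
A match is a description of the letters and not a measured site.

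Glycogen genes were higher while the abundant genes of glycolysis overlapped between genotypes. Of the 25 genes of glycolysis, lactate and glycogen 8 were higher and none lower (median 0.26, and 0.13 after median-ratio scaling). Without 1 or another sample the count was 3 to 9, with 3 without Cd38+/- replicate 1, 3 without Cd38+/- replicate 2 and 3 without Cd38+/- replicate 3. Pygb, the brain glycogen phosphorylase, was at 436, 390.4 and 395 TPM in Cd38+/+ and 677, 615 and 777 in Cd38+/- (0.75, SE 0.14, unadjusted p = 0.00049, q = 0.158). Gys1, glycogen synthase, was at 37.00, 23.9 and 21.6 against 62.6, 43.2 and 49.3 TPM (0.91, SE 0.29, unadjusted p = 0.0117). The muscle phosphorylase Pygm and Ppp1r3c, a targeting subunit that activates glycogen synthase, were higher without overlap as well (0.47 and 0.66), and the set covers both synthesis and breakdown. Hk1, hexokinase, Pfkfb3, which makes the activator of phosphofructokinase, and the lactate carrier gene Slc16a1 were also higher without overlap (0.58, 0.63 and 0.45). Among the abundant ones, Aldoc was at 5812, 4777 and 3549 against 4324, 5835 and 5342 TPM (0.15, SE 0.21), Gapdh at 1899.6, 2285 and 2257 against 1896, 2587 and 2381 (0.08, SE 0.16), and Eno1, Pkm, Ldhb and Ldha with values of 0.10, 0.08, 0.03 and -0.22.

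**Figure D4:**
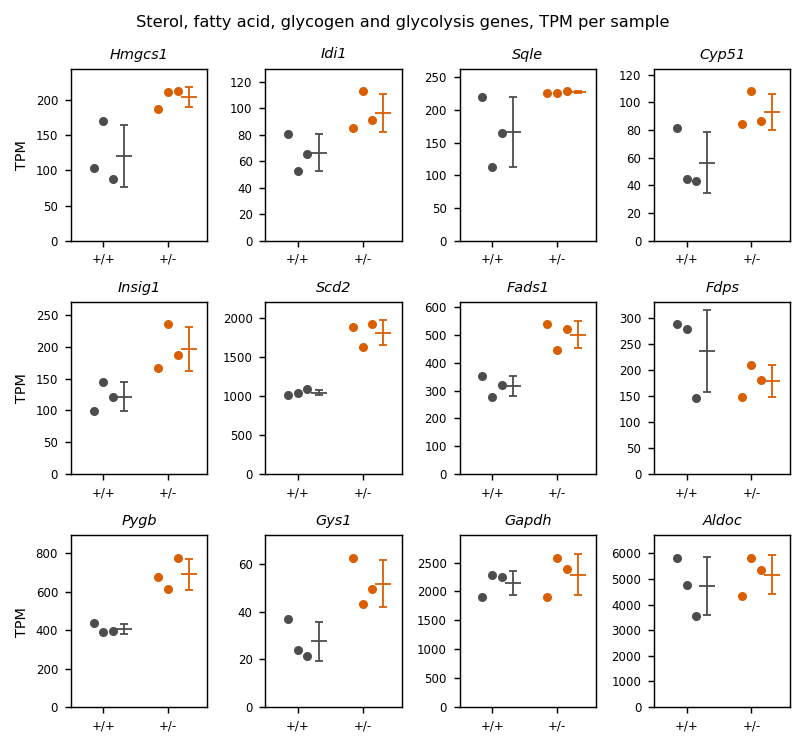
TPM of 12 genes of sterol, fatty acid, glycogen and glucose metabolism; points are the 3 samples of each genotype (grey Cd38+/+, orange Cd38+/-) and the bar is the mean with its SD, each axis starting at 0. Hmgcs1, Idi1, Insig1, Scd2, Pygb and Gys1 do not overlap between genotypes, and Gapdh, Aldoc and Fdps do.

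Further into mitochondrial metabolism the differences were smaller. Of 29 genes of pyruvate dehydrogenase and the TCA cycle 4 were higher and none lower, with a median of 0.14 that was 0.01 after median-ratio scaling. Those called included Pcx, pyruvate carboxylase, at 132, 153 and 131 against 224, 183 and 238 TPM (0.62, SE 0.17), Pdha1, the E1 subunit of pyruvate dehydrogenase (0.56, SE 0.17), and Cs, citrate synthase, at 181, 246 and 209 against 297, 286 and 320.1 TPM (0.51, SE 0.16). The count with 1 sample left out was 2 to 5, with 2 without Cd38+/- replicate 3. Fatty acid oxidation had 4 of 21 higher and none lower, among them Cpt1a, the gatekeeper of mitochondrial import of fatty acids (0.62, SE 0.23), Acsl6, an acyl-CoA synthetase, at 882, 717 and 489 against 977, 1059.5 and 1083 TPM (0.62, SE 0.21), and the dehydrogenase Acadl (0.54, SE 0.16). Its median was 0.14, or 0.0046 after median-ratio scaling. Over the 6 leave-one-out fits the count was 2 to 6, with 2 without Cd38+/- replicate 3. Of 23 amino acid and one-carbon genes 4 were higher and none lower (median 0.17, and 0.04 after median-ratio scaling), led by Gldc, the decarboxylase of the glycine cleavage system, at 31.9, 20.5 and 48.7 against 83.3, 63.2 and 64.3 TPM (1.11, SE 0.32). Leaving out 1 sample gave a count of 3 to 7, with 7 without Cd38+/+ replicate 3. Of 20 genes of mitochondrial dynamics and DNA maintenance 1 was higher and 2 were lower (median 0.04, and -0.09 after median-ratio scaling). The higher one was Mfn1, a fusion protein of the outer mitochondrial membrane, at 153, 123 and 135 against 256, 203 and 221 TPM without overlap (0.72, SE 0.16, unadjusted p = 0.00186). The lower ones were Top1mt, the mitochondrial topoisomerase, at 25.3, 34.5 and 26.3 against 14.3, 15.4 and 14.1 TPM (-0.92, SE 0.29), and Clpp, a matrix protease subunit (-0.35, SE 0.15).

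Lysosomal genes were higher by smaller steps but with 15 of 33 lying above Cd38+/+ without overlap, 8 higher and none lower at the unadjusted p, and a median of 0.27 (0.15 after median-ratio scaling and 0.30 without the length and GC trend). With any 1 sample left out the count was 1 to 11, with 4 without Cd38+/- replicate 1, 4 without Cd38+/- replicate 2 and 1 without Cd38+/- replicate 3. Lamp2, a membrane protein needed for chaperone-mediated autophagy, was at 203, 209 and 217 TPM in Cd38+/+ and 339.9, 311 and 321 in Cd38+/- (0.63, SE 0.13, unadjusted p = 0.00117). Hydrolase genes in the same direction were Tpp1, a peptidase, at 350.2, 273 and 201 against 420.0, 371 and 422 TPM (0.59, SE 0.20) and the ceramidase Asah1 (0.40). The cathepsin gene Ctsb was at 794, 612 and 650.2 against 816, 867 and 907 TPM (0.34, SE 0.14) and Ctsd at 1045, 936 and 893 against 1195, 1095 and 1116 (0.25, SE 0.13), both without overlap. Cln3, a lysosomal membrane protein, was lower in mean with overlap (-0.53, SE 0.30), as was Tfeb, a transcription factor for lysosomal genes (-0.31, SE 0.24). The proton pump of the lysosome gave no common direction, with 1 of 18 V-ATPase subunits higher and 2 lower and a median of -0.09 (-0.22 after median-ratio scaling).

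The palindrome TCACGTGA, the core of the element bound by TFEB, was searched in the same way, and both strands read alike. It was held within 250 bases before the start site by 4 of the 25 well-expressed lysosomal genes with an entry in the RefSeq promoter table, by 1.95% of the well-expressed genes and by 0.907% of all genes there. The 4 stretches are shown because they are the lysosomal promoters that hold it, with the palindrome in capitals.
Ctsd: tcgcccgcgtcTCACGTGAcccgttgaggg
Cln3: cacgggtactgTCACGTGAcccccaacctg
Mcoln1: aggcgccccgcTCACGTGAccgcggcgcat
Ctsa: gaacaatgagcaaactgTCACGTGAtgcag
They lie at chr7:142387908-142387937 on the minus strand, chr7:126583340-126583369 on the minus strand, chr8:3500462-3500491 on the plus strand and chr2:164833743-164833772 on the plus strand, and the palindrome starts 99, 122, 46 and 13 bases before the respective start site. The genes that hold it had no common direction: Ctsd, Ctsa and Mcoln1 had positive log2 fold changes (0.25, 0.31 and 0.39) and Cln3 a negative one (-0.53), and none of the 4 passed the unadjusted p.

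Calcium handling, the other arm of CD38 function, had 4 of 22 genes higher and 1 lower (median 0.25, and 0.13 after median-ratio scaling). Without 1 or another sample the count was 3 to 7, with 7 without Cd38+/+ replicate 3. Atp2a2, the pump SERCA2 that refills the endoplasmic reticulum, was at 209.7, 244 and 199.8 TPM in Cd38+/+ and 484, 308 and 431 in Cd38+/- (0.88, SE 0.19, unadjusted p = 0.00136). Atp2c1, the Golgi calcium pump, Camk2d, a calmodulin-dependent kinase, and Calr, the buffer calreticulin, were higher without overlap as well (0.61, 0.90 and 0.47). Calm2 and Calm3, which both encode calmodulin, had values of -0.31 and -0.23 within their spread.

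Genes for small subunits of large complexes lay on the lower side. Complex I had 6 of 36 subunits lower and none higher, 10 lower without overlap, and a median of -0.30. The count with 1 sample left out was 2 to 14, with 2 without Cd38+/- replicate 1, 14 without Cd38+/- replicate 2 and 2 without Cd38+/- replicate 3. Ndufb7 was at 389.6, 459 and 451 TPM in Cd38+/+ and 256, 323 and 267 in Cd38+/- (-0.62, SE 0.15, unadjusted p = 0.00277), and Ndufa7 at 583, 449.6 and 604 against 309, 426 and 378 (-0.56, SE 0.18). Of the 81 cytosolic ribosome proteins 16 were lower and none higher (median -0.30), Rpl29 for example at 203, 218 and 212 against 132, 161 and 144 TPM (-0.54, SE 0.15). Over the 6 leave-one-out fits the count was 8 to 39, with 39 without Cd38+/+ replicate 1, 8 without Cd38+/- replicate 1 and 9 without Cd38+/- replicate 3. Mitochondrial ribosome proteins had 9 of 77 lower and none higher (median -0.25), with the largest values at Mrpl41, at 241, 234 and 236 against 105, 153 and 126 TPM (-0.90, SE 0.17), and Mrpl51 (-0.88, SE 0.17). Leaving out 1 sample gave a count of 3 to 23, with 23 without Cd38+/+ replicate 2, 3 without Cd38+/- replicate 1 and 5 without Cd38+/- replicate 3. The translocases of mitochondrial import had 4 of 22 lower and none higher (median -0.21). With any 1 sample left out the count was 2 to 7, with 7 without Cd38+/+ replicate 2, 2 without Cd38+/+ replicate 3 and 2 without Cd38+/- replicate 1. Among 36 proteasome subunits 9 were lower and none higher (median -0.15), and subunits of the immunoproteasome were among them: Psmb10 at 134, 109 and 124 against 46.4, 73.5 and 73.5 TPM (-0.94, SE 0.23) and Psmb8 at 77.7, 58.5 and 62.04 against 39.3, 40.96 and 36.5 (-0.74, SE 0.21). The remaining immunoproteasome subunit, Psmb9, was below the well-expressed bound at 14.1, 5.99 and 24.8 against 16.2, 14.4 and 14.5 TPM, with overlap. Without 1 or another sample the count of lower proteasome genes was 4 to 10, with 4 without Cd38+/- replicate 1, 5 without Cd38+/- replicate 2 and 5 without Cd38+/- replicate 3. Complexes III and IV and ATP synthase had medians nearer to 0, with 1 of 21 and 3 of 18 lower and values of -0.15 and -0.09. Cox7a2l, a factor of respiratory supercomplexes, was the 1 called in the former, at 131, 127 and 135 against 69.9, 92.2 and 83.04 TPM (-0.68, SE 0.18).

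After median-ratio scaling the medians of these lists lay lower still, at -0.43 for complex I, -0.43 for the cytosolic ribosome, -0.38 for the mitochondrial ribosome, -0.34 for mitochondrial import, -0.28 for the proteasome, -0.28 for complexes III and IV and -0.22 for ATP synthase. The median transcript length of each of these lists was below that of all well-expressed genes, 1795.5 nucleotides. Transcript length ran along the comparison as a whole. Over 10 equal bins of length, the median log2 fold change of well-expressed genes went from -0.16 in the shortest (up to 722 nucleotides) to 0.30 in the longest (from 4063 nucleotides), and over 5 bins of GC content it went from 0.15 at the low end to -0.02 at the high end. The median transcript length was 678 nucleotides for complex I, 712 for the cytosolic ribosome and 3084 for the receptors. It was 1047 for the mitochondrial ribosome, 1150.5 for mitochondrial import and 1271.5 for the proteasome. With each sample corrected for both, the medians were -0.09 for complex I, -0.12 for the cytosolic ribosome, -0.06 for the mitochondrial ribosome, -0.10 for the proteasome and 0.04 for complexes III and IV, with 3 of 36, 5 of 81, 7 of 77 and 6 of 36 lower at the unadjusted p in the first 4, beside 271 of 7202 well-expressed genes in that fit. Mrpl41, Mrpl51, Psmb10 and Psmb8 kept negative values of -0.68, -1.08, -0.77 and -0.52.

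**Figure D5:**
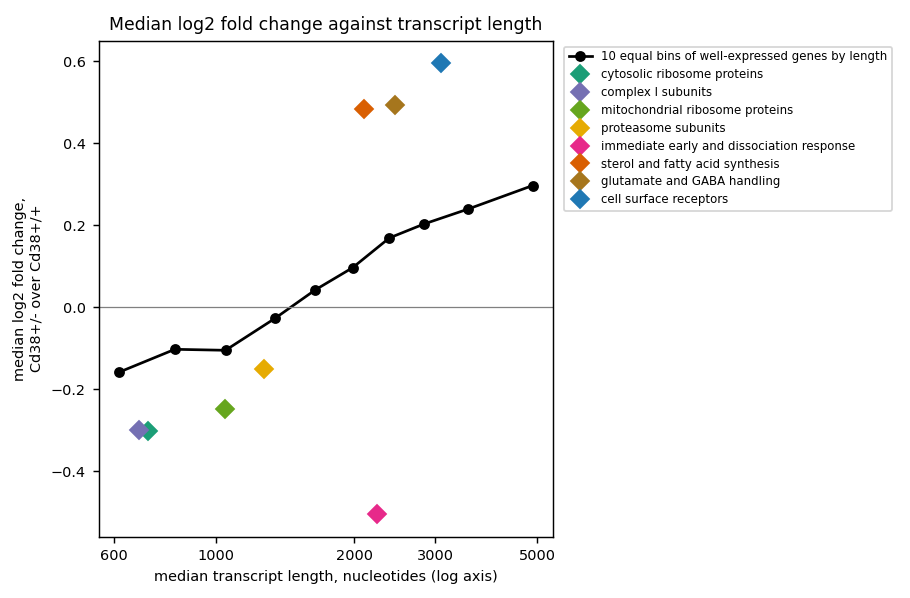
Median log2 fold change (vertical axis) against median transcript length in nucleotides (log axis); black points are 10 equal bins of the well-expressed genes by length and diamonds are gene lists. The bins go from -0.16 to 0.30. Cytosolic ribosome and complex I lists lie at the short end below them. The mitochondrial ribosome and proteasome lists lie below them at 1047 and 1271.5 nucleotides. Immediate early genes lie furthest below, and receptors, glutamate and GABA handling and sterol synthesis lie above them.

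Of the function lists with at least 6 well-expressed members, immediate early genes had the lowest median, -0.50 over 24 well-expressed genes (-0.63 after median-ratio scaling, -0.38 without the length and GC trend), although their median transcript length was 2244 nucleotides. They are switched on within minutes by stress and by tissue dissociation. At the unadjusted p 8 were lower and none higher. The count with 1 sample left out was 6 to 10. Junb, an AP-1 subunit, was at 151, 92.3 and 63.1 TPM in Cd38+/+ and 55.97, 32.9 and 51.6 in Cd38+/- (-1.05, SE 0.34, unadjusted p = 0.0128), Jund at 375, 294 and 526 against 259, 200.4 and 238 (-0.74, SE 0.22), and Klf2, a Krüppel-like factor, at 109, 67.2 and 44.8 against 41.3, 20.02 and 28.8 (-1.23, SE 0.37). None of these 3 overlapped between genotypes. Nfkbia, the inhibitor of NF-κB, was at 302, 262 and 206 against 164, 118 and 166 TPM (-0.78, SE 0.20, unadjusted p = 0.00427) and Ier3 at 36.5, 30.6 and 26.1 against 16.01, 16.1 and 15.5 (-0.91, SE 0.28). Fos overlapped, at 73.2, 103 and 46.9 against 74.5, 34.8 and 91.2 TPM (-0.19, SE 0.40), as did Btg2 and Dusp6 (0.16 and -0.04). Endothelial cells also express Klf2 and Junb, and their markers summed to 2180.1, 1188 and 501 TPM in Cd38+/+ against 853, 424 and 618 in Cd38+/-. The part of these cells and of tissue handling in the values was not tested. Another motif, the palindrome TGACGTCA, was searched in the same RefSeq promoters. Within 250 bases before the start site, 2 of the 22 well-expressed immediate early genes with an entry held it, Btg2 and Dusp1. It was held by 3.32% of the well-expressed genes and 1.77% of all genes there, and neither Btg2 nor Dusp1 passed the unadjusted p.

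Of 20 well-expressed histone genes 9 were lower and none higher (median -0.41, -0.53 after median-ratio scaling and -0.24 without the length and GC trend). Without overlap 11 were lower and 2 higher. Over the 6 leave-one-out fits the count called lower was 7 to 10. This direction held for the well-expressed members only. Over all 82 histone genes, 42 had the higher mean of log2(TPM + 1) in Cd38+/- and 29 the lower, and 26 were at 0 in every Cd38+/+ sample. H2ax, the variant phosphorylated at DNA breaks, was at 92.8, 109.9 and 105 TPM in Cd38+/+ and 53.9, 41.9 and 49.4 in Cd38+/- (-1.07, SE 0.19, unadjusted p = 0.000396, q = 0.158), and H3f3b, which encodes the replacement histone H3.3, at 665, 669.9 and 646 against 514, 459.8 and 469.6 (-0.46, SE 0.12). Replication-type genes such as H4c8 (-1.04, SE 0.18) were lower too; members of this family have near-identical copies between which reads can be split, so single values are uncertain. Genes of the actin cytoskeleton lay on both sides: Actb, cytoplasmic beta-actin, was at 1151, 1296 and 1629 TPM in Cd38+/+ and 2814, 2538 and 2441 in Cd38+/- (0.95, SE 0.16, unadjusted p = 0.000224), whereas the actin-binding proteins Tmsb4x, Tmsb10 and Pfn1 were lower, Tmsb4x at 1669, 1406 and 1024 against 699.5, 958 and 861 (-0.69, SE 0.20), Tmsb10 at 96.6, 92.2 and 53.7 against 25.4, 35.7 and 33.9 (-1.29, SE 0.28) and Pfn1 at 579.8, 456 and 447 against 334, 353 and 328 (-0.54, SE 0.15). Another profilin gene, Pfn2, lay above wild type without overlap, at 152, 179 and 177 against 192, 215 and 219 TPM (0.30, SE 0.15, unadjusted p = 0.0771), and Ezr, which links actin to the membrane, had a value of 0.43 (SE 0.25). Tmsb10 and Tmsb4x are also abundant in endothelial and immune cells, whose part was not tested. In that list 2 of 34 genes were higher and 7 lower (median -0.08, and -0.21 after median-ratio scaling). Leaving out 1 sample gave a number of lower genes from 4 to 7, with 4 without Cd38+/+ replicate 1 and 4 without Cd38+/- replicate 3. Among 33 chaperones 4 were higher and 3 lower. With any 1 sample left out the count of higher genes was 1 to 4, with 1 without Cd38+/+ replicate 1, 1 without Cd38+/- replicate 1 and 1 without Cd38+/- replicate 3. Without 1 or another sample the count of lower genes was 1 to 4, with 1 without Cd38+/+ replicate 3 and 1 without Cd38+/- replicate 3. Hspb1, a small heat shock protein, was at 291, 416 and 164 against 108, 85.5 and 92.8 TPM (-1.50, SE 0.31, unadjusted p = 0.000879), while the endoplasmic reticulum chaperone gene Hsp90b1 was higher (0.43, SE 0.17). Antioxidant enzymes had 1 of 32 higher and 3 lower: Cat, catalase, at 149.6, 129 and 145 against 193, 164 and 195 TPM (0.38, SE 0.16) and Gpx1, glutathione peroxidase, at 291, 280.5 and 268 against 188, 196 and 169.8 (-0.60, SE 0.14). The count of higher genes with 1 sample left out was 0 to 3, with 2 without Cd38+/+ replicate 1, 0 without Cd38+/+ replicate 2, 3 without Cd38+/+ replicate 3, 0 without Cd38+/- replicate 1 and 0 without Cd38+/- replicate 3. Over the 6 leave-one-out fits the count of lower genes was 1 to 4, with 1 without Cd38+/+ replicate 3, 1 without Cd38+/- replicate 1 and 1 without Cd38+/- replicate 3.

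Well-expressed markers of reactive astrocytes gave no single direction, with 2 of 21 higher, 4 lower and a median of 0.02 (-0.11 after median-ratio scaling). Leaving out 1 sample gave a number of lower genes from 2 to 3, with 2 without Cd38+/- replicate 2 and 2 without Cd38+/- replicate 3. Over all 38 genes of the list, 26 had the higher mean of log2(TPM + 1) in Cd38+/- and 12 the lower. Of the 38, 8 were at 0 in every Cd38+/+ sample and none was at 0 in every Cd38+/- sample. Gfap, the intermediate filament of reactive astrocytes, was at 257, 236 and 371 TPM in Cd38+/+ and 734, 698 and 798 in Cd38+/- (1.39, SE 0.18, unadjusted p = 3.92e-05, q = 0.158), and the complement gene C4b at 92.9, 131 and 69.03 against 234, 192 and 248 (1.23, SE 0.24). Vim and Serpina3n, which often accompany Gfap, had log2 fold changes of -0.09 (SE 0.23) and -0.36 (SE 0.27), both with overlap. The class I antigen genes differed among themselves, H2-D1 at 537, 447 and 357 against 325, 288 and 299 TPM (-0.54, SE 0.17) and H2-T23 (-0.60, SE 0.26) being lower, while H2-K1 overlapped at 392, 344 and 397 against 377, 427 and 395 TPM (0.08, SE 0.14); the genes of this family are similar in sequence and their reads can be split, and endothelial cells express them too. Transcription factors of astrocyte identity had no gene higher and 4 of 27 lower at the unadjusted p. Their median was 0.06 (-0.07 after median-ratio scaling), with 15 positive and 12 negative log2 fold changes. With the length and GC trend removed, 3 were higher and 4 lower. Among the lower ones, Klf15 was at 269, 314 and 267 against 212, 188 and 226 TPM (-0.44, SE 0.15). Nr2f1 was at 49.02, 44.5 and 62.7 against 30.4, 29.7 and 22.9 (-0.88, SE 0.25). Lhx2, Hopx and Nfia had positive values with overlap (0.89, 0.57 and 0.39). Sox9, which specifies astrocytes, overlapped (-0.21, SE 0.20). With any 1 sample left out the count of lower genes was 2 to 5, with 2 without Cd38+/+ replicate 1, 2 without Cd38+/- replicate 2 and 2 without Cd38+/- replicate 3.

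Over all well-expressed genes, the largest log2 fold changes without overlap on the higher side were those of Stam (1.58), Plxnb1 (1.42), Cluh (1.41), Gfap, Kif5a (1.38), Clcn2, Rmdn3 (1.29), Cdadc1 (1.28), Cyb561a3 (1.23) and C4b. Stam, an adaptor that sorts ubiquitinated receptors at endosomes, was at 34.02, 17.3 and 17.96 TPM in Cd38+/+ and 67.2, 66.2 and 70.5 in Cd38+/- (SE 0.30, unadjusted p = 0.000497), and Plxnb1, a semaphorin receptor, at 23.1, 44.5 and 32.8 against 106, 73.8 and 88.1 (SE 0.28). Cluh binds messages of nuclear-encoded mitochondrial proteins, and Rmdn3 tethers mitochondria to the endoplasmic reticulum; their Cd38+/+ samples ranged widely, at 24.2, 8.98 and 37.5 and 8.09, 19.9 and 40.7 TPM. On the lower side stood Gdf1 (-3.58), Avp (-3.54), Resp18 (-2.14), Hba-a1, Hba-a2, Nostrin (-1.96), Hbb-bs, Lims2 (-1.78), Neu4 (-1.78) and Igfbp3 (-1.74). The 3 globin genes are erythroid, Avp is a neuropeptide of the hypothalamus and Nostrin is known from endothelium. Avp was at 82.2, 10.6 and 186 TPM in Cd38+/+ and 4.17, 2.34 and 5.68 in Cd38+/-, and Neu4, a sialidase, at 30.3, 32.1 and 29.7 against 13.3, 5.42 and 7.52 (SE 0.38, unadjusted p = 0.00129). The 10 most abundant genes in Cd38+/+ included the same globin genes Hba-a2 and Hbb-bs, and the other 8, Apoe, Cst3, Ckb, Dbi, Clu, Agt, Fth1 and Mt1, had log2 fold changes from -0.26 (Apoe) to 0.30 (Clu), with p from 0.0638 (Clu) to 0.958 (Ckb). Of these, Clu, an apolipoprotein, was the only one whose genotypes did not overlap, at 6061, 6525 and 5481 against 6942, 7706 and 7507 TPM.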

How the data were processed

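RNA of ACSA-2-selected midbrain astrocytes was sequenced by the authors after SMART-Seq v4 amplification. The paper describes rRNA depletion, while the sample labels name polyA RNA, and the bearing of this on single genes was not tested. Per the submitters' processing notes, the tools were Trim Galore 0.6.4, STAR 2.7.1a, RSEM 1.2.28 and DESeq2 1.36.0 with the mm10 build, and the authors deposited TPM values per gene and sample, one table for the series. The gene annotation they used is not given in the sources used here. TPM divides by transcript length and a fixed total, so read depth is lost and long and short transcripts trade against each other.

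The 3 Cd38+/- and 3 Cd38+/+ samples were compared as grouped by their genotype labels, and 0 columns of per-sample values were left unused for want of a label. Genes whose mean exceeded 5 TPM in either genotype were fitted on log2(TPM + 1) with limma 3.58.1 (R 4.3.3, eBayes with trend; statmod 1.5.0), with Storey q-values, a q threshold of 0.05 and a 1.2-fold change; fold changes are on that scale, which understates those of low genes. TPM allows no count model. Single values were compared by two-sided exact permutation (Python 3.11.15, scipy 1.17.1), whose smallest p is 0.1. The fit was tested on simulated data. Gene lists are described by counts at an unadjusted p under 0.05, by genes whose genotypes did not overlap and by medians, beside the same over all genes. The members and lists were chosen with earlier results of these data known. Named genes were Cd38, the most abundant and most different members of each list, the 10 largest differences per direction without overlap among well-expressed genes and the 10 most abundant genes; Tfeb, Psmb9, Nampt and others that fill a step of a pathway were named with their values seen. Transcript lengths and base composition were read from GENCODE vM21, matched for 20577 of 20614 genes, and promoters from RefSeq (GRCm38.p6). Alternatives were pseudocounts of 0.1 and 5, other filters, scalings and weights, removal of each sample's trend on length and GC content (splines with 4 degrees of freedom), a replicate block and leaving out each sample.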

Additional observations from a re-analysis of the deposited data

How the results depend on the processing

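The 0 calls at a q-value under 0.05 became 4 with the replicate block, 1 with the block and the length and GC trend removed, 9 without the variance trend, 30 with library quality weights, 662 without a filter on low values, 1464 with all 12 samples in the fit and 0 to 1 with 1 sample left out, the single call being without Cd38+/+ replicate 3. Of the well-expressed genes, 607 were higher and 436 lower at an unadjusted p under 0.05. The higher count was 293 after median-ratio scaling, 384 without the variance trend and 236 to 788 with 1 sample left out, lowest without Cd38+/- replicate 3 (236) and replicate 1 (264). The lower count was 747 after median-ratio scaling, 271 with the length and GC trend removed, 206 when the block was added to that, 287 without the variance trend and 208 to 601 with 1 sample left out, lowest without Cd38+/- replicate 3. Genes without overlap numbered 1585, and 1729 to 2725 with 1 sample left out, as fewer samples overlap less often. The pairing check gave correlations of deviations between same-numbered samples of -0.0037, 0.037 and 0.044, and not every sample correlated best with its own number, so the numbers were not taken to pair the samples; with the replicate block 532 genes were higher and 360 lower. Among list medians, small GTPases and their regulators (-0.043) and Golgi genes (-0.037) turned negative after median-ratio scaling, complexes III and IV (0.037) and V-ATPase (0.059) turned positive with the length and GC trend removed, the same with the block added, and medians near 0, such as that of NAD metabolism, also changed sign. No single gene named here with an unadjusted p under 0.05 changed direction under any of the alternatives on the 6 samples. The causes were not tested. The precision is limited by 3 samples a genotype, with a median SE of 0.26 on the log2 scale, and the depth of the TPM values is unknown.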

Other observations

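A survey of symbol families, every stem of letters before the first digit of a gene symbol with at least 10 well-expressed members, covered 77 families and 1789 genes, of which 36 families had a median log2 fold change above that of all well-expressed genes. The solute carriers (Slc), which move nutrients, ions and transmitters across membranes, had 136 well-expressed members, of which 25 were higher and 3 lower in Cd38+/- at an unadjusted p under 0.05, 29 and 4 did not overlap, and the median was 0.21 (0.08 after median-ratio scaling). Slc44a1, a choline transporter, was at 28.9, 27.6 and 22.8 TPM in Cd38+/+ and 63.4, 53.9 and 52.8 in Cd38+/- (1.08, SE 0.23, limma unadjusted p = 0.00128). Slc20a2, a phosphate transporter, was at 186, 124 and 125 against 277, 251 and 258 TPM (0.87, SE 0.19), and Slc15a2, a peptide transporter of astrocytes, at 78.2, 89.5 and 86.2 against 127, 176 and 135 (0.77, SE 0.19). On the lower side Slc7a5, the large neutral amino acid carrier that is also abundant in brain endothelium, was at 136, 126 and 109 against 98.5, 74.5 and 91.6 TPM (-0.48, SE 0.19), and Slc38a5, a glutamine carrier, at 51.98, 32.1 and 19.9 against 13.1, 9.59 and 11.8 (-1.42, SE 0.39). The highest family median was that of the Gpr orphan receptors, 0.48 over 14 genes with 6 higher and none lower, followed by the Arhgap regulators of small GTPases at 0.44 and the Usp deubiquitinases at 0.41. The lowest was that of the H stem, which holds histones and class I antigen genes, at -0.41. After median-ratio scaling these medians were 0.35, 0.32, 0.28 and -0.54.

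Several lists gave counts in both directions. Among 79 Zfp zinc finger genes 5 were higher and 3 lower, among 77 small GTPases and their regulators 7 and 7, among 52 splicing factors 4 and 5, and among 48 translation factors 4 and 2. Of 42 genes of the secretory pathway and Golgi 3 were higher and 1 lower, of 12 metallothionein and iron genes 1 was lower, and of 14 circadian clock genes none was called in either direction, with a median of 0.17 (0.04 after median-ratio scaling). These counts moved with single samples: of the Zfp genes 0 were higher without Cd38+/- replicate 1 or 3, and of the splicing factors 0 were lower without either. Of the 57 clustered protocadherin genes, cell surface labels of neural cells, 6 were well expressed, 2 higher and 1 lower. The list of glial long noncoding RNAs had 1 member in the table, Snhg11, at 12.03, 13.3 and 37.6 TPM in Cd38+/+ and 13.1, 8.36 and 5.47 in Cd38+/- (-1.03, SE 0.53, unadjusted p = 0.0843). The list of mitochondrial genome transcripts matched 0 genes of the deposited TPM values, so these transcripts could not be described.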
